A study of Mus musculus with 12 samples.

Results

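The regions described here are stretches of chromatin that were listed as open in mouse embryonic fibroblasts (MEF), in no later stage of their reprogramming, and that lie at an end of a gene. A region of the common set was taken when it overlapped an interval of the deposited MEF list by at least 1 bp, overlapped no interval of the Stage 1, Stage 2 or iPSC lists, and lay within 1 kb of either end of a protein-coding gene (mm10). This rule was met by 3104 of 115000 regions, which are 2.7% of all regions and 4.8% of the 64720 regions listed in MEF alone. Because the lists were made from the same libraries as the counts, the members were selected on the level in MEF and its difference from the later stages, and these values are given as a description without a test.

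The study followed chromatin accessibility through reprogramming by ATAC-seq, which reads out where a transposase, Tn5, can reach the DNA and insert adapters. There were 4 groups of 3 libraries: MEF, which were not sorted; Stage 1 cells at day 6; Stage 2 cells after 4 further days; and established induced pluripotent stem cells (iPSC). The cells of the 3 later groups were sorted as positive for a green fluorescent reporter of Oct4, so they are the cells that had switched the reporter on and not the whole culture. All cells had a mixed background of C57BL/6 and 129, and the labels name the protocol 3c enhanced reprogramming without saying in the sources used here what 3c is or which factors and agents were given. Nothing in the labels says that the libraries of a group are from different animals or cultures. The p-values therefore rest on library-to-library spread, part of which may be technical.

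A gene's start carries its promoter, where nucleosomes give way to transcription factors and RNA polymerase when the gene is in use. Promoters rich in the dinucleotide CpG are open in most cell types, whereas promoters poor in CpG are more often open only in the cells that use the gene. Fibroblasts make collagen and other matrix, carry contractile fibres and respond to TGF-beta, growth factors and inflammatory signals, and loss of this programme is a known early event of reprogramming.

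The promoters below show both kinds among the regions, since CpG content divides those that lie over a start. Each sequence is the 200 bases before a start inside a listed region, 5′ to 3′ on the gene's strand, from RefSeq (GRCm38.p6, the assembly of mm10), in lower case with each CpG in capitals. The first 4 hold between 0 and 4 CpG and belong to genes for smooth muscle actin (Acta2), a hair keratin-associated protein (Krtap1-5), a fibrillar collagen (Col3a1) and the cytokine interleukin 6 (Il6). The last 3 hold between 16 and 34 and belong to 2 transcription factors (Twist2 and Cebpb) and an adaptor of a ubiquitin ligase (Kctd11).
Acta2: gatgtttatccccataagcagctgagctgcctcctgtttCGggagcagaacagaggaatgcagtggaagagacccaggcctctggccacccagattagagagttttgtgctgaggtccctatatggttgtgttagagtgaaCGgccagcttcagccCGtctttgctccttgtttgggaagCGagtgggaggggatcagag
Krtap1-5: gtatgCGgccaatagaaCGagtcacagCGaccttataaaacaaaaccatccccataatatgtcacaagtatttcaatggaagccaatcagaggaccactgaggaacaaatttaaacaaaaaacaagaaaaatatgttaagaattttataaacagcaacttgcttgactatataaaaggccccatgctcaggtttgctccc
Col3a1: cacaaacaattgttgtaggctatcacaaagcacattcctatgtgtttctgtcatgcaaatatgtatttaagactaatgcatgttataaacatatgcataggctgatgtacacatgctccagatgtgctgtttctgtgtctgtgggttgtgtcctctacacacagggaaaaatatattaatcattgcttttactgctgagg
Il6: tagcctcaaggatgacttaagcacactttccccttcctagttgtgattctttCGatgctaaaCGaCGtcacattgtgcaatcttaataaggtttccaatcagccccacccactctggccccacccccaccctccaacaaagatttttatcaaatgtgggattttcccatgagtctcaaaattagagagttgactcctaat
Twist2: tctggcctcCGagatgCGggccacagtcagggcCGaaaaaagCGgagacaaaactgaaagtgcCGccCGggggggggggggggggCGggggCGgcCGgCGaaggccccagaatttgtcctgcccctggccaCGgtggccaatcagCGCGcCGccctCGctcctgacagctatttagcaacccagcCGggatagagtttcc
Cebpb: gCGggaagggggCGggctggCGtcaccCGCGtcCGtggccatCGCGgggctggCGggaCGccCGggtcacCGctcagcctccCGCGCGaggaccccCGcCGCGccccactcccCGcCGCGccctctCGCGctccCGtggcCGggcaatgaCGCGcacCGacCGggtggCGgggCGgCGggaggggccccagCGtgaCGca
Kctd11: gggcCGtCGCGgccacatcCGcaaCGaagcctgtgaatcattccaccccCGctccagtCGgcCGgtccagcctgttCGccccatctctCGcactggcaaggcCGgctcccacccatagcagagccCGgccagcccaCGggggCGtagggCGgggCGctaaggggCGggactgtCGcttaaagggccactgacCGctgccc
The stretches lie at chr19:34255374-34255573 (minus strand), chr11:99581017-99581216 (minus strand), chr1:45311338-45311537 (plus strand), chr5:30012914-30013113 (plus strand), chr1:91801261-91801460 (plus strand), chr2:167688715-167688914 (plus strand) and chr11:69880986-69881185 (minus strand), in that order.

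The libraries held between 14310290 and 32229388 reads, of which between 1034936 and 6261903 fell in regions. The share of reads in regions was 22.1%, 16.7% and 11.3% in the 3 MEF libraries and between 4.49% and 8.12% in the 9 later ones, so the later libraries count a region less precisely. A member region had a median of 94 reads over the 3 MEF libraries, against 14 in Stage 1, 21 in Stage 2 and 19 in iPSC. As a check of the labels, regions within 1 kb of an end were listed in MEF for 11 of 14 fibroblast marker genes and 1 of 10 pluripotent cell marker genes, and in iPSC for 5 and 8. Read density at the pluripotent marker regions was between 1.21 and 1.74 times the density outside regions in MEF and between 3.59 and 8.69 times in the later libraries.

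The 3104 regions were short and lay close to the gene end. Their median width was 550 bp (middle range 450 to 650 bp), equal to the 550 bp of MEF-only regions farther from genes and below the 850 bp of regions near gene ends that all 4 lists hold. A gene end was inside 1050 regions (33.8%), and the others lay a median of 522.5 bp away. Of all regions 14.2% lay within 1 kb of an end, of those not confined to the MEF list 26.2% and of those on all 4 lists 64.2%, against the 4.8% of MEF-only regions.

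Strand was known for 79.9% of the 21887 protein-coding genes, and it placed 1384 regions at a start alone, 856 at a far end alone and 81 at both. Of the 1497 within reach of a known start, 611 lay over it, 360 upstream and 526 downstream of it. A region was near an end of 3049 genes (13.9% of all), of which 330 had at least 2 such regions. Another region on all 4 lists lay at an end of 990 of these genes (32.5%), against 41.8% of all protein-coding genes. No gene had 4 or more, and the genes with 3 included Lamc3, a laminin chain, Ptx3, a secreted pattern recognition protein, and Pcdh1, a protocadherin, and these names were chosen after the counts were seen.

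Read density, the reads per base pair in the regions over the reads per base pair outside all regions of the same library, was 8.57 ± 3.22 (SD, n = 3) in MEF. The later stages had 1.8 ± 0.1 (Stage 1), 1.6 ± 0.0826 (Stage 2) and 1.49 ± 0.0498 (iPSC). Regions near gene ends on all 4 lists also had falling means on this scale (18.1, 8.72, 6.06 and 4.52). As a share of the reads in regions the members went the other way after Stage 1, with 2.7% in MEF and 1.4%, 1.61% and 1.84% later. The MEF libraries lay at 5.43 to 11.9 and did not overlap the later ones, which is what the rule asks for. The density of the later libraries stayed above 1, the level outside regions, in each of the 9. In MEF, 3102 regions exceeded 2 times the outside density, and in Stage 1, Stage 2 and iPSC 1172 (37.8%), 995 (32.1%) and 808 (26%) still did, although no later list holds them.

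The remaining signal was at gene starts more than at far ends. In MEF both were alike, with 8.7 ± 3.26 at starts and 8.2 ± 3.07 at far ends. At starts the density was 2.16 ± 0.15, 1.86 ± 0.129 and 1.69 ± 0.0818 in Stage 1, Stage 2 and iPSC, and at far ends 1.22 ± 0.0326, 1.19 ± 0.0171 and 1.17 ± 0.0433. In each later stage the lowest library at starts was above the highest at far ends, while MEF-only regions away from genes were at 1.03, 0.912 and 0.916. More start regions than far end regions thus exceeded 2 times the outside density, with 51.0% against 15.9% in Stage 1 and 35.3% against 10.6% in iPSC.

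**Figure D1:**
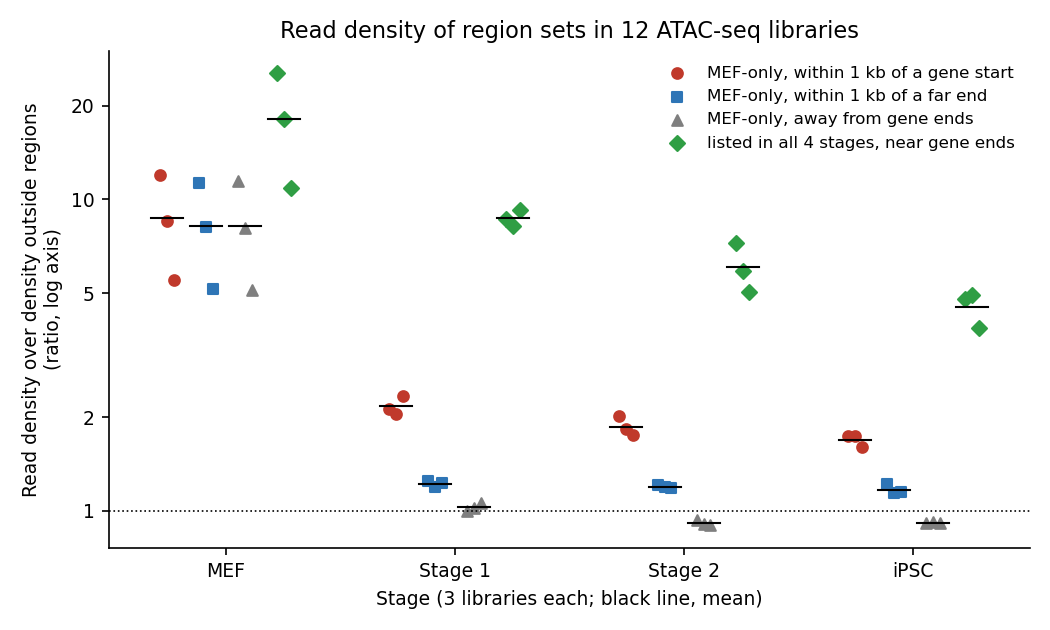
Read density of 4 sets of regions in each of the 12 libraries, as a ratio to the density outside regions on a log axis (dotted line, 1), with a point per library and a black line at the mean. In MEF the MEF-only sets lie close together, with starts slightly above far ends and regions away from genes in each library. In the later stages starts (1.69 to 2.16 on average) lie above far ends (1.17 to 1.22) and above regions away from genes (0.912 to 1.03).

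Density was higher beside a region of a later list, at starts, at far ends and also in MEF-only regions away from genes. A region of a later list lay within 1 kb of 783 members (25.2%), against 4.93% of MEF-only regions away from genes. Over all members with such a neighbour the density was 2.54, 2.21 and 1.9 in Stage 1, Stage 2 and iPSC, and without one 1.58, 1.42 and 1.37. In MEF the 2 sets were at 9.4 ± 3.5 and 8.33 ± 3.14. Away from genes the later values were 1.57, 1.45 and 1.33 with a neighbour and 1.0, 0.885 and 0.895 without. At starts without a neighbour (868 regions) the later density was 1.91, 1.66 and 1.56 and with one 2.67, 2.27 and 1.95. At far ends without a neighbour (803 regions) it was 1.19, 1.16 and 1.15, and with one (53 regions) 1.77, 1.84 and 1.56.

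CpG content separated the starts further. The RefSeq promoters, each 250 bases before to 50 after a start, numbered 678 with their start inside a member (629 genes), and their median CpG content over that expected from base composition was 0.561. It was 0.811 for 7438 promoters with their start in a region on all 4 lists and 0.21 for 9169 with their start in no region. A ratio of 0.6 or more was found in 46.2% of the members' promoters, 84.0% and 11.3% of the others and 47.7% of all 21263 promoters. The median share of G and C was 59.0% for members, 62.7% for regions on all 4 lists and 48.0% outside regions.

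**Figure D2:**
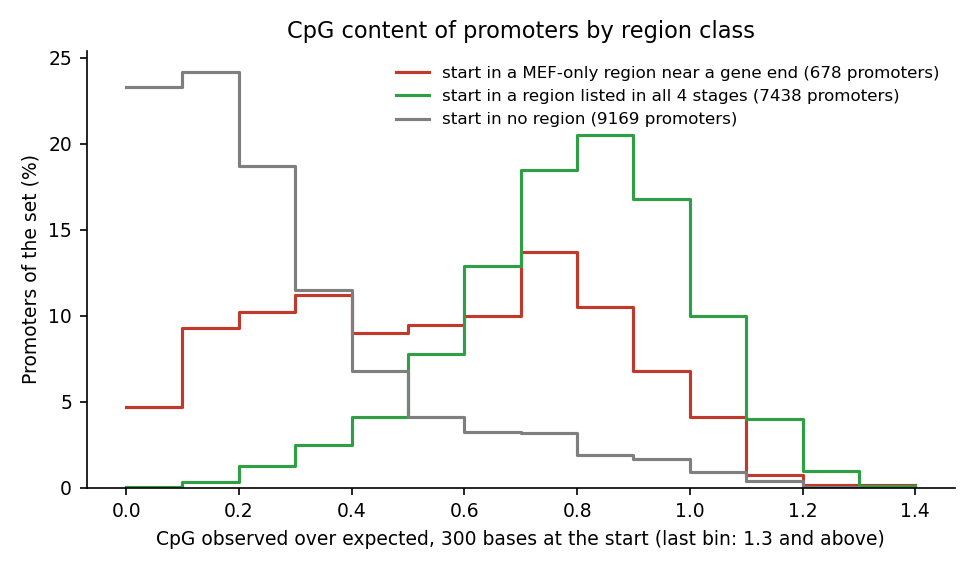
Share of promoters (%) by CpG observed over expected in the 300 bases at the start, in bins of 0.1, for starts inside a MEF-only region near a gene end, inside a region on all 4 lists and in no region. The promoters of MEF-only regions spread over both the low range of starts in no region and the high range of starts open in all 4 stages.

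Regions over a start with a CpG-rich promoter (290 regions with a ratio of at least 0.6) kept more reads after MEF than those with a CpG-poor one (332). The CpG-rich set was at 8.63 ± 2.95 times the outside density in MEF, then 2.84 ± 0.219 in Stage 1, 2.48 ± 0.192 in Stage 2 and 2.12 ± 0.125 in iPSC. The CpG-poor set was at 9.15 ± 3.66, 1.91 ± 0.147, 1.57 ± 0.0871 and 1.51 ± 0.0596. The share of G and C moves with CpG content, and its part in the difference was not tested.

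Promoters inside members were searched on both strands for short motifs, each match being a description and not a site. The AP-1 motif TGANTCA was in 13.9% of the members' promoters, against 3.43% of those in regions on all 4 lists, 10% of those in no region and 6.99% of all promoters. It was in 19.7% of the 218 promoters inside MEF-only regions away from the ends of protein-coding genes, so the share was not highest in the members. The GC box GGGCGG, which itself holds a CpG, was in 49.7%, 73.7%, 16.6% and 46.2% in the same order, and CCAAT, bound by NF-Y, in 27.3%, 43.5%, 36.9% and 38.2%. Matches to the TEAD motif GGAATG (16.8% of members, 13.6% of all), the E-boxes CAGCTG and CATCTG (30.4% and 27.9%), the RUNX motif TGTGGTT (5.46% and 4.71%) and the TATA box TATAAA (11.1% and 12.6%) lay closer to the share of all promoters. In the 218 promoters TEAD was in 19.3%, the E-boxes in 35.3% and RUNX in 8.26%. The rarer motifs were the CEBP motifs TTGCGCAA and TTGCATCA (1.18% and 1.09%) and the octamer ATGCNAAT (1.62% and 2.92%).

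Among the printed promoters, that of Kctd11 holds 1 match to TGANTCA and 2 GC boxes, and that of Krtap1-5 holds 4 matches to the TATA box. Over all members with a promoter, those with an AP-1 match (88 regions) were at 1.89, 1.49 and 1.39 times the outside density in Stage 1, Stage 2 and iPSC, and those without (534) at 2.42, 2.07 and 1.87. In MEF the values were 9.37 ± 3.37 and 8.83 ± 3.32, while the median region was at 6.92 with a match and 7.29 without. In the later stages the set with a match was thus the lower one, and in MEF the order depended on the measure. CpG content was not held equal between these sets, and its part in the difference was not tested.

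Levels of single regions are given as CPM, the reads of a region scaled to a fixed total of reads in regions after TMM scaling of library sizes. Over the 3104 regions the MEF level had a median of 7.8 CPM and a middle range of 4.9 to 12.7. The 310 strongest regions held 29.7% of the members' MEF reads. Since TMM scales to reads in regions, a CPM of background reads is larger in the later libraries, where fewer reads are in regions. By CPM all 3 MEF libraries lay above all 9 later ones in 1285 regions (41.4%) and by density over outside in 2441 (78.6%), and 543 regions had a lower mean CPM in MEF than over the later libraries, 7 by density. The same shares over all regions are not given here, so these cannot be read as particular to the members. By density, regions near gene ends on all 4 lists were also higher in MEF (18.1, against 4.52 to 8.72 later).

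The highest count rate belonged to a region 649 bp from the far end of Susd1 (chr4:59314851-59316150). It had 151, 143 and 122 CPM in MEF, 7.43, 1.84 and 3.88 in Stage 1, 2.81, 6.61 and 4.57 in Stage 2 and 4.07, 3.62 and 5.09 in iPSC. All MEF libraries were far above the 9 others, which overlapped, and the mean in MEF, 139 ± 14.9 CPM, was 33.7 times that in iPSC.

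Further regions of high rate were at a keratin-associated gene pair, Plod2 and Cap1. The region over the start of Krtap1-5 and the far end of Krtap1-4 (chr11:99580901-99582100) had 71.3, 68.8 and 61.9 CPM in MEF and between 1.84 and 5.94 in the 9 later libraries. Near an end of Plod2, which hydroxylates collagen lysines for cross-linking, a region (chr9:92537551-92538650) had 65.4 ± 5.48 CPM in MEF, then 6.62 ± 1.55 in Stage 1, 4.84 ± 0.364 in Stage 2 and 3.3 ± 2.3 in iPSC. A region inside which Cap1, an actin regulator, and Ppt1 end (chr4:122859101-122859950) had 62.3 ± 4.81 CPM in MEF and between 2.52 and 4.29 on average later. None of these later levels exceeded 1.32 times the outside density.

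The other regions of highest rate lay near the far ends of Anxa5, a phospholipid-binding annexin (73.6 ± 7.88 CPM in MEF), Cntf, a neurotrophic cytokine (64.5 ± 1.66), and Ppp2r1b, a scaffold of protein phosphatase 2A (62.8 ± 8.57), and over the start of Kctd11 and an end of Acap1 (75.8 ± 10.6). The Kctd11 region (chr11:69880651-69881650), whose promoter is CpG-rich, was the exception among them. Its libraries read 67.2, 87.6 and 72.7 CPM in MEF, 15.7, 13.8 and 12.3 in Stage 1, 14.1, 15 and 17.6 in Stage 2 and 13.6, 12.3 and 12.7 in iPSC, which is 3.08, 2.78 and 1.98 times the outside density in the 3 later stages.

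Lists of genes for fibroblast functions had a member at an end more often than protein-coding genes at large, of which 13.9% did; the lists were chosen with earlier results of these data known, and no test was made. The share was 19 of 36 (52.8%) for contractile and cytoskeletal genes, 20 of 44 (45.5%) for growth factors and receptors, 12 of 28 (42.9%) for chemokine and inflammatory genes and 21 of 51 (41.2%) for matrix genes. It was 16 of 42 (38.1%) for mesenchymal transcription factors, 12 of 33 (36.4%) for the TGF-beta pathway and 11 of 33 (33.3%) for adhesion and surface genes. The AP-1 family, with 3 of 17 genes (17.6%), was near the share of all genes. Epithelial genes, with 2 of 27 (7.41%), and ribosomal protein genes, with 1 of 22 (4.55%), were below it, and the pluripotency network had none of 26.

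**Figure D3:**
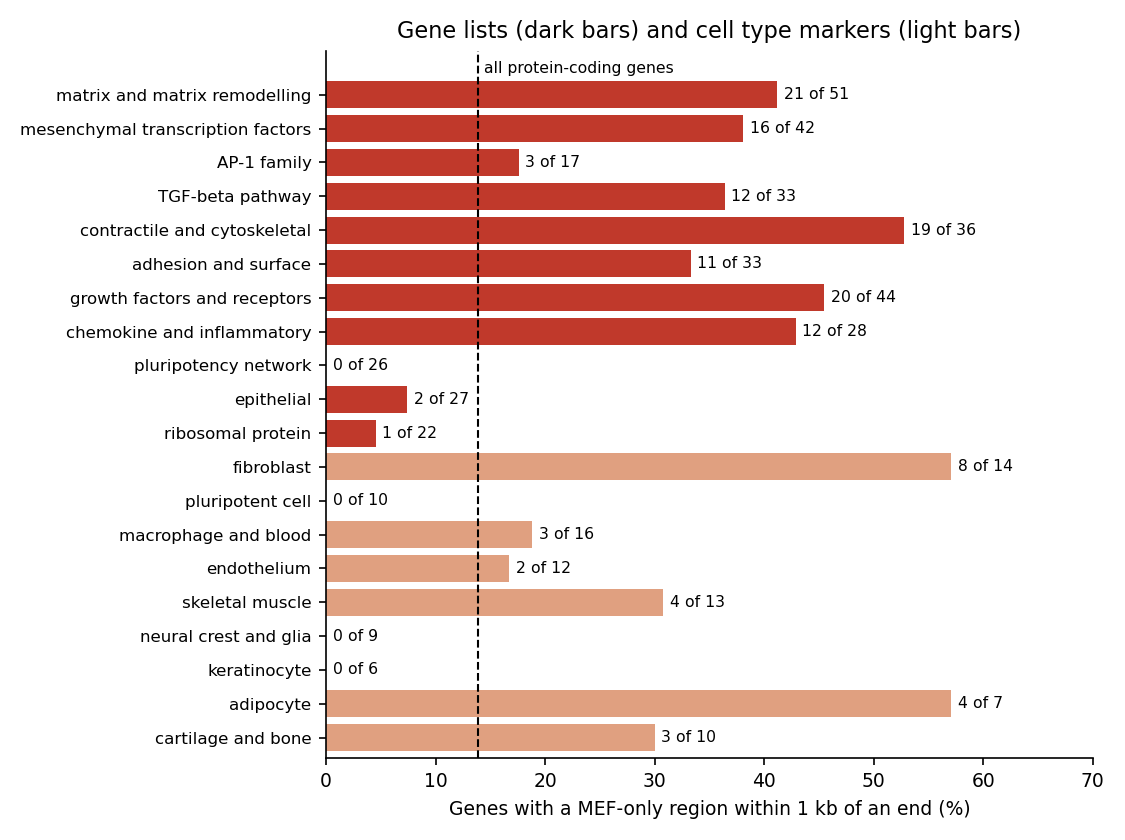
Share of the genes of each list (%) with a MEF-only region within 1 kb of an end, with the count beside each bar, for pathway lists (dark bars) and cell type marker lists (light bars). The dashed line is the 13.9% of all protein-coding genes, the fibroblast and adipocyte marker lists are highest at 57.1%, and contractile, growth factor, inflammatory and matrix genes follow at 41.2% to 52.8%.

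Transcription factors of mesenchymal cells included regions over CpG-rich starts. At the start of Twist2, a basic helix-loop-helix factor of dermal and limb mesenchyme (chr1:91801101-91801900), the libraries read 23.6, 22.0 and 18.2 CPM in MEF, 5.78, 1.84 and 3.88 in Stage 1, 7.88, 8.41 and 10.5 in Stage 2 and 12.2, 7.24 and 5.09 in iPSC. MEF lay above all others, and Stage 2 above Stage 1 without overlap, but that difference did not pass edgeR's test over all regions (log2 fold change 1.19 ± 0.43 SE, adjusted p = 0.0535). At the start of Cebpb (chr2:167688551-167689350) the values were 22.1, 23.8 and 25.9 in MEF, 18.2, 9.21 and 15.5 in Stage 1, 13.5, 16.8 and 13.7 in Stage 2 and 12.2, 8.69 and 12.7 in iPSC. The 4.07, 3.3 and 2.14 times the outside density that this region kept in Stage 1, Stage 2 and iPSC are above the means of all members.

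The AP-1 family factors Fosl1 and Maff had weak regions. The one 903 bp from an end of Fosl1 (chr19:5448601-5449000) had 6.09 ± 0.335 CPM in MEF, then 3.72 ± 2.09 in Stage 1, 3.55 ± 2.08 in Stage 2 and 2.59 ± 1.49 in iPSC. The one near an end of Maff and Tmem184b was at 4.06 times the outside density in MEF and 3.49, 1.88 and 1.98 afterwards, and by CPM MEF did not lie above the other groups.

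Contractile genes had some of the highest levels among the lists. The region over the start of Acta2 (chr19:34255001-34255900) had 64.4, 57.7 and 48.7 CPM in MEF, 5.78, 4.6 and 7.11 in Stage 1, 2.81, 1.8 and 5.23 in Stage 2 and 5.42, 2.9 and 3.4 in iPSC. MEF lay 9.79, 18.2 and 14.8 times above the Stage 1, Stage 2 and iPSC means, and the later groups were at 1.49, 0.642 and 0.678 times the outside density. A separate region over the far end of Acta2 and an end of Stambpl1 (chr19:34240301-34241000) read 15 ± 5.07 CPM in MEF and 1.05 ± 0.946, 1.6 ± 0.259 and 3.57 ± 1.33 later. At neither end of the gene did the later groups exceed 1.49 times the outside density.

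Over an end of Tagln, which encodes the actin-bundling protein transgelin (chr9:45935601-45936350), the libraries read 51.2, 51.3 and 49.1 CPM in MEF, 2.48, 3.68 and 3.88 in Stage 1, 4.5, 9.61 and 5.23 in Stage 2 and 4.07, 4.35 and 9.34 in iPSC. Over the 25 contractile regions the summed level was between 430 and 484 CPM in the MEF libraries and between 96.2 and 144 in the later ones. Their density was 14.0 times that outside regions in MEF and 1.54, 1.43 and 1.42 times in Stage 1, Stage 2 and iPSC.

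Matrix genes followed the same course at lower levels. The region over an end of Ccn2, the connective tissue growth factor (chr10:24598651-24600200), had 48.6, 55.2 and 44.5 CPM in MEF, 6.6, 3.68 and 1.29 in Stage 1, 7.31, 6.61 and 7.19 in Stage 2 and 6.1, 7.97 and 11 in iPSC. Near an end of Thbs1, thrombospondin 1, a region (chr2:118127901-118128750) had 33.6 ± 4.91 CPM in MEF and 1.5 ± 0.525, 2.25 ± 0.991 and 1.19 ± 1.52 later. Both were at or below the outside density in the 3 later groups.

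The fibrillar collagen genes Col1a1, Col1a2 and Col3a1 each had a region at an end. At the start of Col3a1 (chr1:45311051-45311850) the libraries read 18.1, 15.7 and 15.5 CPM in MEF, 5.78, 5.52 and 2.59 in Stage 1, 1.13, 6.01 and 5.88 in Stage 2 and 5.42, 3.62 and 10.2 in iPSC. The region over an end of Col1a1 (chr11:94935901-94936550) had 18.9 ± 2.39 CPM in MEF, then 2.36 ± 0.816 in Stage 1, 4.06 ± 1.09 in Stage 2 and 4.03 ± 0.925 in iPSC. That near the far end of Col1a2 (chr6:4542401-4542750) had 7.48 ± 3.02, 1.35 ± 0.987, 3.68 ± 1.34 and 2.61 ± 2.48 and did not pass the filter on low counts.

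For the TGF-beta pathway, the region over the start of Tgfbr2, the type II receptor (chr9:116174901-116175650), read 29.4 ± 4.47 CPM in MEF, then 8.1 ± 0.295 in Stage 1, 6.97 ± 1.51 in Stage 2 and 11.7 ± 5.81 in iPSC. It was at 1.69 to 2.4 times the outside density in the later stages. A region 896 bp from the start of Fstl1, a secreted glycoprotein, read 22.9 ± 1.4 CPM in MEF and between 5.25 and 6.19 on average later. At the start of Tgfbi, an extracellular protein induced by TGF-beta (chr13:56609251-56609800), MEF was at 8.07, 6.13 and 7.73 CPM and overlapped the Stage 2 libraries at 3.38, 6.01 and 9.15.

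Growth factor, adhesion and inflammatory genes gave further strong regions. The region over the start of Il6 (chr5:30012551-30013550) read 40.8, 35.4 and 34.4 CPM in MEF, 9.08, 5.52 and 5.82 in Stage 1, 6.75, 6.01 and 3.27 in Stage 2 and 7.45, 5.07 and 5.09 in iPSC. Near the far end of Nt5e, which encodes the surface nucleotidase CD73 (chr9:88372801-88373550), MEF was at 56.5, 43.8 and 34.8 CPM and the later libraries between 1.45 and 5.94. In both, all MEF libraries were above all others and the later groups overlapped.

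Over an end of Cdh11, the mesenchymal cadherin 11 (chr8:102784801-102785600), MEF read 39.3 ± 6.73 CPM and the later groups 14.5 ± 1.85, 13.0 ± 6.67 and 13.7 ± 3.4, at 4.07, 2.98 and 2.67 times the outside density. The start of Axl, a receptor tyrosine kinase, read 16.2 ± 1.6 in MEF and between 4.24 and 6.41 on average later, and an end of Pdgfb, a platelet-derived growth factor chain, 18 ± 5.07 and between 2.61 and 5.29. The far end of Ptgs1, cyclooxygenase 1, read 28.0 ± 5.27 in MEF and between 2.7 and 4.97 later.

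**Figure D4:**
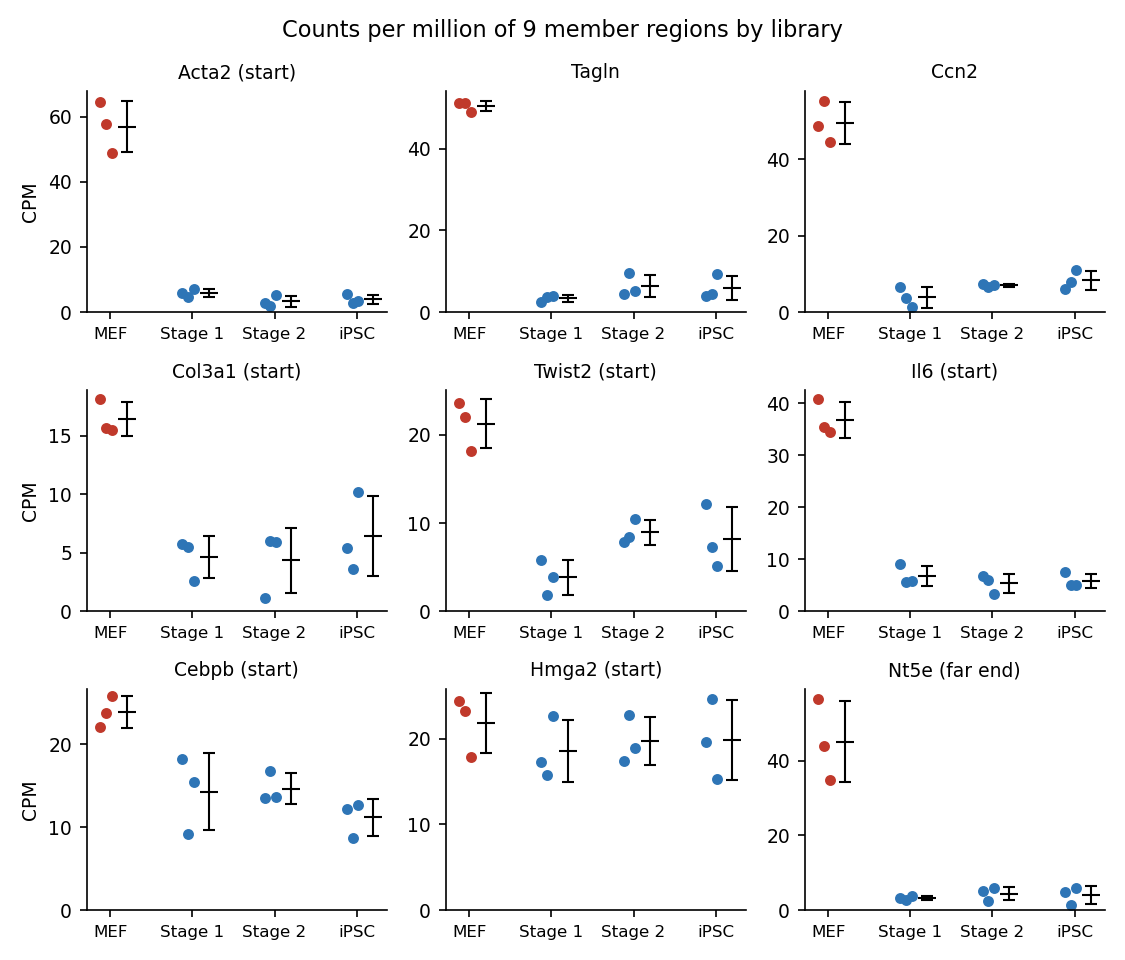
CPM of 9 regions in each library (points), with the mean and SD of each group beside them, on linear axes that start at 0. In the regions of Acta2, Tagln, Ccn2, Col3a1, Twist2, Il6, Cebpb and Nt5e all 3 MEF points lie above the other 9, and at Hmga2 the MEF libraries overlap the later ones.

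Of the fibroblast markers, 8 of 14 genes had a member, with 9 regions that summed to between 115 and 142 CPM in the MEF libraries and between 31.9 and 52.6 in the later ones. Among these, the region near the start of Postn, the matrix protein periostin (chr3:54358301-54359000), had 23.9 ± 3.54 CPM in MEF, then 3.26 ± 1.11 in Stage 1, 2.92 ± 2.57 in Stage 2 and 2.51 ± 1.13 in iPSC. Over an end of Thy1, a surface marker often used to follow loss of fibroblast identity (chr9:44043001-44043650), it was 13.8 ± 2.31, 8.23 ± 2.14, 7.93 ± 2.36 and 7.81 ± 2.22, which is 9.84, 2.86, 2.22 and 1.82 times the outside density. The region shared by S100a4 and S100a5 (chr3:90606251-90606600) had 10.6, 4.09 and 4.64 CPM in MEF and at most 2.55 in a later library.

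Markers of other cell types that unsorted MEF could hold were also represented. A member lay at 4 of 7 adipocyte genes (57.1%), 4 of 13 skeletal muscle genes (30.8%), 3 of 10 cartilage and bone genes (30.0%), 3 of 16 macrophage and blood genes (18.8%) and 2 of 12 endothelial genes (16.7%), and at none of 9 neural crest and glial, 6 keratinocyte and 10 pluripotent cell genes. The muscle region near the start of Myh3, an embryonic myosin, had 19.8 ± 4.49 CPM in MEF and between 1.84 and 3.93 on average later. The start of Pparg, the adipocyte nuclear receptor (9.52 ± 2.89 CPM in MEF and 14.1 ± 4.75 in iPSC), and regions near Plin1, Sp7, Col2a1, Cd14, Fcgr3, Erg and Cldn5 were at 8.2 times the outside density or less in MEF. At Pparg, Plin1, Sp7, Col2a1 and Cldn5 a later group had the higher mean CPM. Over the outside density MEF was highest at each of these genes, at 8.2, 5.13, 5.22, 6.5 and 4.1, against at most 4.87, 2.24, 3.64, 3.84 and 2.75 later. Of the epithelial and ribosomal lists, an end of Grhl2, an epithelial factor, had 3.32 ± 1.18 CPM in MEF and 6.27 ± 1.29 in iPSC, an end of Rpl3, a ribosomal protein, 3.67 ± 0.507 and 4.04 ± 2.59, and the far end of Lamb3, a laminin chain, 21.4 ± 5.1 and 3.5 ± 1.52.

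Over all regions at the ends of the macrophage and blood genes, of which 7 of 16 had any region, density was between 2.55 and 5.85 in MEF and between 2.81 and 5.4 in the later libraries. For the endothelial genes, 6 of 12 with a region, it was between 3.0 and 6.26 and between 3.04 and 4.27. For the muscle genes, 7 of 13 with a region, it was between 7.99 and 17.5 in MEF and between 2.3 and 6.03 later. For adipocyte genes (5 of 7) the ranges were 7.14 to 17.3 and 1.89 to 3.55, and for cartilage and bone genes (7 of 10) 4.17 to 9.49 and 2.12 to 4.51. Neural crest and glial genes (7 of 9) were at 7.72 to 19 in MEF and 3.97 to 8.74 later, and keratinocyte genes (2 of 6) at 2.4 to 4.23 and 3 to 6.87. Sorting differed between MEF and the later groups, so a change within fibroblasts and a change in which cells were present cannot be told apart, and the part of other cell types was not tested.

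The members that were highest in iPSC were regions with reads left in each stage. At Hmga2, an architectural chromatin protein, the region over the start (chr10:120476101-120477000) read 24.4, 23.2 and 17.8 CPM in MEF, 17.3, 15.7 and 22.6 in Stage 1, 17.4, 22.8 and 18.9 in Stage 2 and 19.6, 24.6 and 15.3 in iPSC. All groups overlapped in CPM, and over the outside density it was at 11.2 in MEF and 4.72, 3.93 and 3.43 later. The start of Klf12, a Krüppel-like factor, was at 10.4 in MEF and 6.84, 8.13 and 7.62 later on that scale, the nearest to its MEF level of the 4. Near an end of Shisa6 the density was 6.71 in MEF and between 2.6 and 3.4 later, and over the ends of Nrm and Ppp1r18 17.4 and between 3.17 and 4.01.

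Few members had no read in a later group. There were 8 without a read in Stage 1, 2 in Stage 2 and none in iPSC; a count of 0 over a group allows up to 3 reads. The 3 narrow ones at Il1r1, Bmp1 and Foxa3 had between 8 and 10 MEF reads, and the others, at Apol7b, Apol7e, Gm10509, S100a7a, Spata4, Ly6g and Tagap, between 29 and 189. At the low end of the MEF level, 21 members had under 20 MEF reads, and 1 region of 50 bp at BC034090 had none. The gene names in this paragraph were chosen after the counts were seen.

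Values at the 1 kb limit are given as a description. The regions just inside, 999 bp from the starts of Nup153 and Tmem190, had 10.3 ± 4.34 and 3.53 ± 0.931 CPM in MEF and between 3.53 and 5.23 and between 2.24 and 3.08 on average later. Those just outside, 1001 bp from an end of Efna1 and Lpp, had 12.7 ± 1.68 and 10.6 ± 1.2 in MEF and between 8.63 and 12.6 and between 6.12 and 8.42 later.

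What could be tested was whether members differed among the 3 later stages, from each of whose lists the rule asks them to be absent. Because those lists come from the same libraries, the rule also limits the later levels. Whether it limits the 3 stages equally was not tested. After a filter on low counts 71069 regions were tested, among them 1794 members (57.8%). A filter over the 9 later libraries alone kept 1006 (32.4%), so many of the 1794 entered through their MEF reads, and the counts below do not stand for all members. A region is called at an adjusted p under 0.05 (edgeR quasi-likelihood test, Benjamini-Hochberg over all regions tested), and percentages of all tested regions are given beside the main counts of calls.

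Between Stage 1 and iPSC, 101 members were higher in iPSC and 12 lower by TMM scaling; of all regions tested 6.74% were higher and 9.6% lower, and of the members tested 5.63% and 0.669%. The direction depended on the scaling: with whole-library scaling 11 members were higher and 83 lower, where 1.58% and 22.2% of all regions were. The 11 were among the 101, and the 12 among the 83. Fitted on the later libraries alone, where not all of these regions were tested, 52 of the 101 and 8 of the 12 were called. The median log2 fold change of the tested members was 0.36 by TMM and -0.19 by whole-library scaling, and of all tested regions 0.04 and -0.52, a shift between scalings of all regions that is as large as that of the members.

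The 101 and the 12 regions were called on the same reads, so their densities in Stage 1 and iPSC are a description and not a further result. The median density of the 101 was 0.895 times that outside regions in Stage 1, with 56 of them below 1. In iPSC it was 1.91 times, and 50 exceeded 2 times. The 12 lower regions had a median density of 4.23 in Stage 1 and 1.11 in iPSC.

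**Figure D5:**
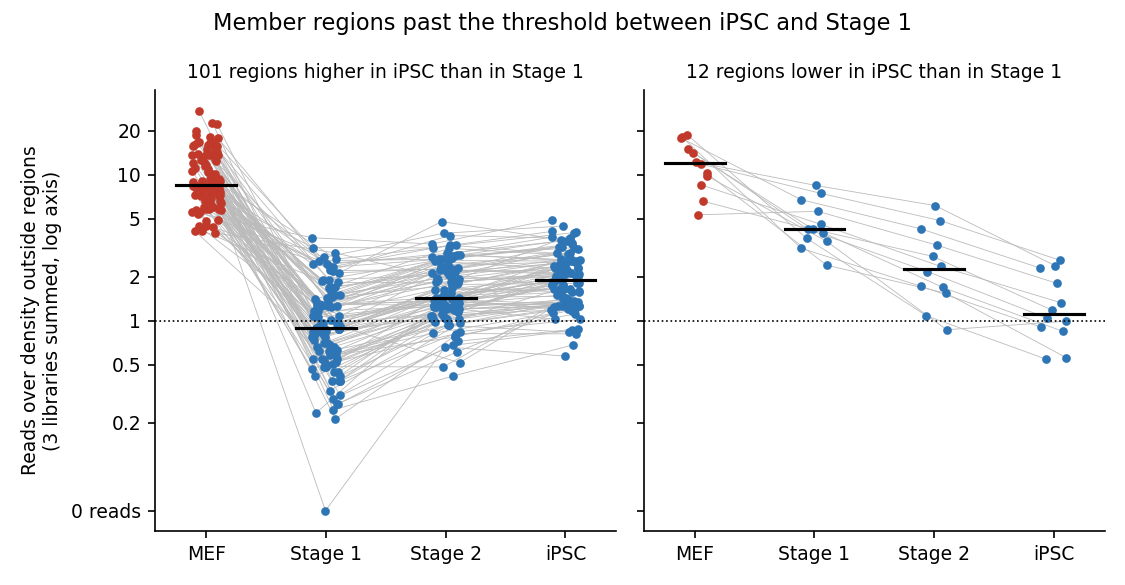
Reads of each member past the threshold between iPSC and Stage 1, as a ratio to the density outside regions (log axis, 3 libraries of a group summed), for the 101 higher (left) and 12 lower regions (right), with a point and line per region and a bar at the median. The higher regions go from a median of 0.895 in Stage 1 to 1.91 in iPSC, and the lower ones from 4.23 to 1.11. Both sets were picked on these same reads.

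The regions with the largest fitted rises had a few reads in the later libraries. The region near the far end of Spata4 (chr8:54609201-54609800) had 80, 67 and 42 reads in MEF, no read in the 3 Stage 1 libraries, 3, 4 and 4 in Stage 2 and 4, 3 and 2 in iPSC. With Stage 1 set to 3 reads over the group, the observed rate in Stage 2 was 2.83 times and in iPSC 2.86 times as high. These ratios leave out the sampling spread of the Stage 2 and iPSC reads, and in both stages the rate was below the outside density. Near the far end of Capza2, which encodes an actin-capping subunit (chr6:17666101-17666850), the reads were 0, 2 and 1 in Stage 1, 5, 9 and 12 in Stage 2 and 6, 5 and 9 in iPSC, against 179, 156 and 67 in MEF. Both regions entered the test through their MEF reads and did not pass the filter over the later libraries, so no p is given.

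Near the far end of Dip2a and S100b (chr10:76262301-76262950) Stage 1 had 1, 0 and 2 reads and iPSC 8, 9 and 5, and near that of Rgs8 (chr1:153698601-153699150) 0, 1 and 1 and 3, 4 and 9. The groups did not overlap, and in iPSC the regions were at 1.29 and 1.11 times the outside density, from 0.269 and 0.212 in Stage 1. These regions too passed the filter through MEF alone, and no p is given.

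The 12 lower regions, picked on the same reads, were all above 2 times the outside density in Stage 1. Near the start of Serpinb9b, a serine protease inhibitor gene (chr13:33028401-33029100), the libraries read 29.5, 29.1 and 30.2 CPM in MEF, 8.25, 9.21 and 15.5 in Stage 1, 3.94, 6.01 and 2.61 in Stage 2 and 2.71, 4.35 and 0.0 in iPSC. It fell in Stage 2 (log2 fold change -1.39 ± 0.39, adjusted p = 0.011) and in iPSC (-2.11 ± 0.47, adjusted p = 0.000568) against Stage 1, under both scalings, with DESeq2 and with the later libraries alone. Near the start of Aebp2, a Polycomb cofactor, the density went from 4.23 in Stage 1 to 1.04 in iPSC (log2 fold change -1.41 ± 0.44, adjusted p = 0.0168). That call was lost with DESeq2 (adjusted p = 0.0586) and without Stage 1 replicate 1 or 3 or iPSC replicate 2 or 3. Near the start of Tfip11, a splicing factor, the density was 4.01 in Stage 1 and 0.847 in iPSC, in a region that passed the filter through MEF alone.

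Between Stage 1 and Stage 2, 32 members were higher in Stage 2 and 12 lower by TMM, where 5.14% and 5.62% of all tested regions were. With whole-library scaling 3 were higher and 17 lower (1.55% and 6.31% of all regions). Fitted on the later libraries alone, where again not all were tested, 22 of the 32 and 9 of the 12 were called. On the reads by which they were called, the 32 had a median density of 1.18 in Stage 1 and 2.47 in Stage 2, and the 12 went from 3.63 to 1.13. Over an end of Ldb2, a cofactor of LIM-domain proteins (chr5:44799401-44800400), the libraries read 12.4, 12.9 and 20 CPM in Stage 1, 5.06, 5.41 and 3.92 in Stage 2 and 8.13, 2.9 and 8.49 in iPSC, against 18.6 to 24.4 in MEF, which the highest Stage 1 library overlapped. The fall in Stage 2 (log2 fold change -1.65 ± 0.35, adjusted p = 0.000526) passed with whole-library scaling, with DESeq2, with the later libraries alone and without any single library.

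The other regions named for Stage 2 did not pass the filter over the later libraries, and their values are given without a p. The region shared by Pfn1, the actin monomer-binding profilin, and Rnf167 was at 0.388 times the outside density in Stage 1 and 1.44 in Stage 2. That over the start of Arhgdib was at 2.44 and 0.578, and that near an end of Dsc3, a desmosomal cadherin, at 2.12 and 0.525.

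Between Stage 2 and iPSC only 2 members were higher and 1 lower by TMM (0.498% and 1.36% of all tested regions), and 115 and 26 had an unadjusted p under 0.05. With whole-library scaling none was higher and 1 lower (0.038% and 0.857% of all regions), with 18 and 51 at an unadjusted p under 0.05. The shares of all tested regions at an unadjusted p under 0.05 are not given here. The unadjusted counts are therefore no result about the members, and their direction too changed with the scaling. Near the start of Cpxm2, a carboxypeptidase-like protein (chr7:132154201-132154700), Stage 2 read 6.19, 4.2 and 5.23 CPM and iPSC 10.2, 17.4 and 11 (log2 fold change 1.33 ± 0.36, adjusted p = 0.0303), and near the start of Mab21l4, which passed the filter through MEF alone, 1.69, 2.4 and 1.96 against 10.2, 7.24 and 3.4. Over the start of Sp5, a transcription factor gene activated by Wnt signalling (chr2:70474851-70475300), they read 14.1, 12 and 14.4 against 4.74, 6.52 and 4.25 (-1.33 ± 0.36, adjusted p = 0.0316). The groups did not overlap in these 3. With whole-library scaling the rise at Cpxm2 did not pass (adjusted p = 0.212) and the fall at Sp5 did (adjusted p = 0.0487), each Stage 2 and iPSC library left out singly ended both calls, and DESeq2 gave no adjusted p for them. The Sp5 region was at 5.58 times the outside density in MEF, then 4.78 in Stage 1, 5.38 in Stage 2 and 1.78 in iPSC, and by CPM Stage 2 (13.5 ± 1.28) lay above MEF (5.74 ± 1.06), although only the MEF list holds it.

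Other filters and DESeq2 moved these counts. With the 9 later libraries alone, 116 of 1006 members were higher and 8 lower in iPSC than in Stage 1 (12.5% and 12% of all regions tested there), 54 higher and 14 lower in Stage 2 than in Stage 1 (10.4% and 10.1%), and 8 higher and 1 lower in iPSC than in Stage 2 (2.42% and 2.55%). With no filter the counts were 82 and 16 (3.8% and 6.18%), 23 and 8 (2.83% and 2.96%), and 0 and 1 (0.187% and 0.826%), with 168 and 55 at an unadjusted p under 0.05 in the last comparison. With DESeq2 they were 42 and 3 (3.33% and 5.35%), 8 and 2 (2.42% and 2.19%), and 0 and 0 (0.0549% and 0.422%). For the last comparison DESeq2 had 71 and 16 members at an unadjusted p under 0.05 and gave no adjusted p for 1410 of 1794. The unadjusted counts in this paragraph also stand without the shares of all regions.

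The 8 lists of fibroblast functions held 137 regions, of which 93 were tested. By TMM 6 were higher in iPSC than in Stage 1 (6.45%, against 6.74% of all tested regions) and 1 was lower in Stage 2 than in Stage 1 (1.08%, against 5.62%). With the later libraries alone 46 were tested, of which 8 (17.4%, against 12.5%) were higher in iPSC and 2 each (4.35%) higher and lower in Stage 2 (against 10.4% and 10.1%). The names of the regions given next, apart from Ccn2, were chosen after the values were seen. The higher ones were Ccn2 (log2 fold change 1.21 ± 0.45, adjusted p = 0.0477) and Loxl1, a collagen cross-linking oxidase (1.37 ± 0.41, adjusted p = 0.012), Ltbp4, which binds latent TGF-beta (1.74 ± 0.46, adjusted p = 0.00439), Prrx2, a mesenchymal homeobox factor (1.79 ± 0.51, adjusted p = 0.00798), Fgf2 (1.56 ± 0.48, adjusted p = 0.0165) and Flnc, a muscle filamin (2.0 ± 0.5, adjusted p = 0.00227). At Prrx2 Stage 1 read 1.65, 3.68 and 1.94 CPM and iPSC 8.81, 7.97 and 6.79, against 7.68, 7.04 and 9.67 in MEF. Over the outside density it was at 0.873 in Stage 1 and 2.03 in iPSC, against 5.85 in MEF. In iPSC the 5 others were at 0.812 (Ccn2), 1.65 (Ltbp4), 2.13 (Loxl1), 2.35 (Flnc) and 2.52 (Fgf2), against 4.12 to 16.7 in MEF. With whole-library scaling Flnc passed (adjusted p = 0.0462) and the 5 others did not (adjusted p between 0.0798 and 0.379). Tnfrsf11b, which encodes the decoy receptor osteoprotegerin, fell in Stage 2 (-1.24 ± 0.35, adjusted p = 0.0114, and 0.0108 with whole-library scaling). With DESeq2 the calls at Tnfrsf11b (adjusted p = 0.0825), Ccn2 (adjusted p = 0.095) and Fgf2 (adjusted p = 0.0538) were lost, and with the later libraries alone all 7 passed (adjusted p between 0.000565 and 0.0204).

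Genes with a member also had other regions. Within their span and 10 kb to either side, 71.2% of the 3049 genes had a further MEF-only region, against 48.6% of the 18838 genes without a member, and 85.0% against 75.7% had a region on a later list. These genes were somewhat longer (median span 20486 and 16672 bp), and the part of length in the difference was not tested. A further region but no region on any later list was found at 278 (9.12%) of them, against 725 (3.85%) of the others.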

How the data were processed

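ATAC-seq read counts of 115000 common regions in 12 libraries were used as deposited by the authors, raw and with interval lists per stage. The submitters' processing notes name mm10 as the build. They list HTSeq 0.5.4p3 and DESeq2 1.12.4, without a role, and beside these SAMtools 0.1.19, Bowtie2 2.2.6 and Picard 2.6.0. The peak caller, the handling of duplicates and any shift of reads for the transposase are not given in the sources used here. A shift moves a read by only a few bases, and kept duplicates would raise counts. Reads in no region or ambiguous between regions (the latter between 0.0311% and 0.23% of a library) stayed out of the library sizes that TMM scales, and entered those of whole-library scaling.

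The 3104 regions were selected on overlap with the stage lists and on distance to the gene ends of RefSeq (GRCm38.p6). The members and the gene lists were chosen with earlier results of these data known. Density over outside is the reads per base pair in a set of regions over that of reads in no region, taken over the span up to the last region of each chromosome (2720989200 bp in all) less the regions. Because that span includes sequence to which no read maps, a ratio of 1 is a library average and not a noise level.

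The 3 later stages were compared with edgeR 4.0.16 in R 4.3.3 (quasi-likelihood test with robust fit, two-sided, TMM, filterByExpr with a minimum count of 10), fitted on all 12 libraries. The p-values were adjusted by Benjamini-Hochberg over 71069 regions, with a threshold of 0.05. The fit was run on simulated data with known changes, and the outcome is not given here. Those changes were set in regions with more expected reads per library than most members had in the later libraries. The simulation therefore does not cover the low counts of the members. Alternatives were scaling by all reads of a library, DESeq2 1.42.0, no filter, the 9 later libraries alone, the replicate number as a block, each library left out, distances of 500 bp and 2 kb, and a MEF interval over at least 50% of the region. Every pair of libraries of a group differed by more than sampling noise (chi-square per degree of freedom from 1.03 to 2.13). This does not show that they come from different cultures, and each was counted as 1 replicate.

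The regions named were the 8 highest in MEF, up to 2 per gene or marker list by MEF level, the 4 highest in iPSC, up to 3 rises and 3 falls per comparison whose libraries did not overlap, 2 on each side of the distance limit and those at 12 chosen fibroblast genes. No member was without reads in iPSC. Other names are marked in the text as chosen after their values were seen. Sequences of the regions themselves were not read because no genome was used here, and promoters come from RefSeq (GRCm38.p6). Tables were joined with pandas 2.3.3 and plotted with matplotlib 3.10.9.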

Additional observations from a re-analysis of the deposited data

How the results depend on the processing

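Distances of 500 bp and 2 kb gave 2029 and 5161 regions in place of 3104. In Stage 2 against Stage 1, the 32 higher regions became 3 with whole-library scaling, 54 with the later libraries alone, 8 with DESeq2 and 57 within 2 kb, and the 12 lower ones 2 with DESeq2 and 20 within 2 kb. In iPSC against Stage 2, the 2 higher became 0 with whole-library scaling, with no filter and with DESeq2, 8 with the later libraries alone, 1 within 500 bp and 4 within 2 kb, and the 1 lower became 0 with DESeq2. In iPSC against Stage 1, the 101 higher became 11 with whole-library scaling, 42 with DESeq2 and 169 within 2 kb, and the 12 lower became 83, 3 and 19 in these and 5 within 500 bp. The distance settings change how many regions are members, and for the others the cause was not tested. The log2 ratios of the members' summed CPM in MEF over Stage 1, Stage 2 and iPSC were 1.23, 1.09 and 0.97 by TMM and 2.08, 2.22 and 2.31 by whole-library scaling.

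Leaving out single libraries gave 12 to 40 higher and 4 to 16 lower regions in Stage 2 against Stage 1, 0 to 2 and 0 to 2 in iPSC against Stage 2, and 41 to 119 and 5 to 15 in iPSC against Stage 1. The log2 ratios then moved by less than the spread between libraries. Counts moved by over 1.5 times without Stage 1 replicate 3 (12 and 4, and 41 and 6), Stage 1 replicate 2 (17 and 7), Stage 2 replicate 3 (12 and 6), Stage 2 replicate 2 (17 and 5) and iPSC replicate 3 (62 and 5), for the higher counts also without iPSC replicate 1 (60), and for the lower ones also without Stage 1 replicate 1 (7), Stage 2 replicate 1 (6) and iPSC replicate 2 (6). In iPSC against Stage 2 the higher count was 0 without each Stage 2 library and iPSC replicates 1 and 2 and 1 without iPSC replicate 3, and the lower count 0 without each Stage 2 or iPSC library and 2 without MEF replicate 1. Of 240 values for the 15 named rises and falls, 180 kept the direction and the call, 60 kept the direction alone and 0 reversed.

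With the replicate block the counts were 26 and 10, 2 and 1, and 84 and 11. The shares of all tested regions with this block and with single libraries left out are not given here. Whether the members moved more than other regions in these settings was not tested. No pairing by replicate number was seen. Deviations correlated between -0.0645 and 0.0656 over 18 pairs with the same number and between -0.0761 and 0.075 over 36 others. With few reads per region, this cannot show whether libraries of the same number share a culture or batch. The later libraries had a median of 14 to 21 reads per region over a group, which limits small differences.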
